A study of Mus musculus with 6 samples.

Results

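The genes described here encode 10 transporters of the hepatocyte, most of them on its bile-facing membrane: Abcb11, Abcb4, Abcb1a, Abcc2, Abcc3, Abcc6, Abcg2, Abcg5, Abcg8 and Atp8b1. Accessible chromatin was mapped by ATAC-seq (Tn5 transposase inserts sequencing adapters where DNA is open) in nuclei from the livers of male mice of the genotype labelled Ncor1/2 F/F, in which the loxP-flanked alleles of both corepressor genes are intact until Cre acts. All animals received an adeno-associated virus (AAV), carrying eGFP in the control group (3 libraries) and Cre in the double knockout group (dKO, 3 libraries). Livers were taken on day 5 after the virus at zeitgeber time 10, and nuclei positive for the hepatocyte factor HNF4a were sorted before Omni-ATAC. The sources used here give neither the promoter driving Cre nor the strain, age or floxed exons, so peaks at Ncor1 do not check the deletion. No label states that the libraries came from separate animals, so p-values measure only the spread among libraries, which may be technical.

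Peaks of the 6 libraries that shared 1 bp or more were merged into 109853 regions on the autosomes and the X chromosome. A region was assigned by its midpoint to the nearest span of a protein-coding gene, up to 50 kb away. This gave 116 regions to the 10 genes, of which 53 had a peak in every library and are called shared. The value of a region in a library is its highest normalized tag count, a depth-scaled signal counted over a peak width that is fixed within a library. In nuclei measured in bulk, a site open in fewer nuclei and a site less open in each nucleus cannot be told apart.

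Bile forms at the canaliculus, the channel between neighbouring hepatocytes, by active transport of its main solutes. ABCB11 exports bile salts, ABCB4 moves phosphatidylcholine to the outer leaflet, the ABCG5 and ABCG8 half-transporters form a dimer that exports cholesterol and plant sterols, and ABCC2 exports conjugated bilirubin and other glutathione and glucuronide conjugates. ABCB1A and ABCG2 extrude drugs and other foreign compounds, ABCC3 and ABCC6 lie on the blood-facing membrane, and ATP8B1, the only member that is not an ABC protein, is a flippase that keeps the canalicular membrane resistant to bile salts. NCOR1 and its partner corepressor bring histone deacetylase activity to nuclear receptors, several of which are known to regulate these genes.

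The promoter windows of 5 starts are shown because the peak at the start of Abcc2 was called only in the control lists, whereas no region over the other starts shown was called changed in the fit described below. Each window runs from 250 bases before to 50 bases after a RefSeq start (GRCm38.p6, the mm10 assembly), 5′ to 3′ on the strand of the gene, and capitals mark matches to 7 motifs searched on both strands. The windows are chr19:43782058-43782357 (+) for Abcc2, chr17:84682871-84683170 (+) for Abcg8, chr6:58640296-58640595 (+) for Abcg2, chr5:8893471-8893770 (+) for Abcb4 and chr2:69342567-69342866 (-) for Abcb11.
Abcc2: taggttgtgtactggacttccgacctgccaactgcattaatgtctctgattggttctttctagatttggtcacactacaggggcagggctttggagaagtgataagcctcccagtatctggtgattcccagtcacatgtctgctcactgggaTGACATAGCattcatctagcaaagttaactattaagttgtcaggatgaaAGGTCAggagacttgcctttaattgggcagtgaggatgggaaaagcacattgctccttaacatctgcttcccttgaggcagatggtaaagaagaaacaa
Abcg8: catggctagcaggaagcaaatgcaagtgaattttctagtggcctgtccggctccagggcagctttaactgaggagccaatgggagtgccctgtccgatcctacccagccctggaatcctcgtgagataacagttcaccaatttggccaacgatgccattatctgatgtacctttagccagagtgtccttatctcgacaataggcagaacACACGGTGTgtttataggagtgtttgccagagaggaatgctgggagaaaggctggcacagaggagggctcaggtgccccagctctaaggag
Abcg2: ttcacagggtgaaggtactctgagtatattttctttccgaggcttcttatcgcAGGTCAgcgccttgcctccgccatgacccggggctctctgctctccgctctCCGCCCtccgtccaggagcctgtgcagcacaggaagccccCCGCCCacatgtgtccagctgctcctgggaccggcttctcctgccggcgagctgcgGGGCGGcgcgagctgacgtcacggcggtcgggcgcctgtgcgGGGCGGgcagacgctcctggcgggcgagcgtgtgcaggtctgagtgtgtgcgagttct
Abcb4: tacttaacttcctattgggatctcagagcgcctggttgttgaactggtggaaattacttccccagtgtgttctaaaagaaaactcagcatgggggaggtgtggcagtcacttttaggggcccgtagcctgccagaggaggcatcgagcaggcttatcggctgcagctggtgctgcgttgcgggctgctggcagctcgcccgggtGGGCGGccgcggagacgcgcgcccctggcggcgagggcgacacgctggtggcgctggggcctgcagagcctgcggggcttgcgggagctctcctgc
Abcb11: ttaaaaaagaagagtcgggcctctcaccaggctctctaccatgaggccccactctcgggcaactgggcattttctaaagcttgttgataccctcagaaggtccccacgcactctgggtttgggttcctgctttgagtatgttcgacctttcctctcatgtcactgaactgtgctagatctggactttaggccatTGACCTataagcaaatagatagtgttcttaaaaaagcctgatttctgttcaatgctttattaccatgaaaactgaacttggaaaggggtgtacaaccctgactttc
In the Abcc2 window the nuclear receptor half-site AGGTCA lay 49 bases before the start, and TGACATAGC, a match to the antioxidant response element core TGACNNNGC, began 98 bases before it. The Abcg8 window overlaps that of Abcg5, which starts on the opposite strand, and both hold the same match to the glucocorticoid receptor element core ACANNNTGT. The Abcg2 window held 1 AGGTCA and 4 GC boxes (GGGCGG), and the Abcb4 window held 1 GC box. The Abcb11 window held AGGTCA on the opposite strand, beginning 56 bases before the start.

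RefSeq windows were matched for 7 of the 10 genes, 10 windows in all counting alternative starts, and none was printed for Abcc3, Abcc6 or Atp8b1. AGGTCA occurred in 4 of the 10 windows and in 16.3% of all 32851 windows of the same length. ACANNNTGT occurred in 3 of 10 against 6.85%, TGACNNNGC in 2 of 10 against 12.4%, and GGGCGG in 3 of 10 against 35.7%. The ACANNNTGT matches of Abcg5 and Abcg8 are the same site in overlapping windows, counted in each. Windows of alternative Abcg2 starts were also counted separately, so the windows are not independent. The HNF4 core CAAAGTCCA (0.475% of all windows), the HNF1 core TTAATNATT (1.47%) and GTCANTGAC, the core of an inverted repeat of the half-site spaced by 1 base (0.387%), matched none of the 10. TGACNNNGC and GTCANTGAC contain TGAC, which is also in the complement of AGGTCA, but no matches overlap in the printed windows. A match describes letters only and was not tested as a binding site.

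The 6 peak lists held 68316 to 84614 peaks with a median normalized tag count of 10.9 to 13.4. The fixed peak width was narrower in the lists of control 1, dKO 1 and dKO 2 (narrow-peak lists) than in those of control 2, control 3 and dKO 3 (wide-peak lists). Each width class holds libraries of both groups. The sources used here do not say why the width differs or whether it marks a batch. The fit has the group as its only term, and the width class enters as an alternative. The third dKO library stood apart from the others of its group: on the first principal component of all shared regions it scored 12.7, against 63.5 and 53.6 for dKO 1 and dKO 2 and -48.4 to -36.3 for the controls. Regions were found at 8 of 8 hepatocyte marker genes, but their presence alone does not separate the cell types, since other markers had regions too. The 31 shared regions of the hepatocyte markers summed to 1097 to 1240 in the controls and 666 to 962 in the dKO. Of them, 16 were lower and 0 higher in the dKO, against 11.6% lower and 8.19% higher among all shared regions in the fit described below. Regions were also found at 6 of 6 endothelial markers (25 shared, summed 340 to 436 in the controls and 266 to 361 in the dKO, 4 lower, 1 higher). They were found at 3 of 6 cholangiocyte markers (8 shared, summed 78.6 to 101 and 74.8 to 102), with none at Krt19, Krt7 or Cftr. Kupffer and macrophage markers had regions at 5 of 6 genes (2 shared, summed 25.7 to 26.5 and 16.1 to 28.4), stellate markers at 5 of 6 (9 shared, 85.7 to 98.3 and 85.4 to 108.2) and lymphocyte markers at 2 of 6 (3 shared, 51.4 to 64.9 and 46.4 to 59.7). The part of these cell types, and of the fall at hepatocyte markers, in the results was not tested.

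Of the 53 shared regions at the transporter genes, 8 were higher and 8 were lower in the dKO at an adjusted p under 0.05 (limma on log2 values with a pseudocount of 1, each library centred on its median, Benjamini-Hochberg adjustment over all 51749 shared regions). Each count is 15.1% of the 53 shared regions, against a background of 8.19% called higher and 11.6% called lower among all shared regions. The median log2 fold change was -0.05 at the transporter genes and -0.02 over all shared regions. The values of the 2 groups did not overlap in 18 of the 53 regions (34.0%), against 28.4% of all shared regions. Of all 116 transporter regions, 3 (2.59%) had a peak in every dKO library and in no control, against 1.57% of all regions. Where merged peaks had to overlap by 50 bp, 1 of these 3 remained. In the other direction 6 (5.17%) had a peak in every control and in no dKO library, against 1.34% of all regions. The remaining 54 regions were called in some libraries only. Without dKO 3, 9 shared regions were called higher and 9 lower, without dKO 1 4 higher and 5 lower, and without dKO 2 4 higher and 3 lower. Without control 1 or control 3, 5 were called lower. Under quantile or cyclic loess normalization 11 were called higher and 7 lower. Without dKO 3, 8 regions had a peak in the remaining dKO lists only, and without control 2, 10 had one in the remaining controls only.

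The regions that rose were mostly weak in the controls, and those that fell were about as strong there as the uncalled ones. Control means of the 8 higher regions had a median of 9.13 (range 5.02 to 24.2), and those of the 8 lower regions a median of 26.8 (13.5 to 61.2). The 37 uncalled shared regions had a median of 24.6 (7.41 to 92.8). The whole series leaned the same way: a fit of the 20570 regions with a mean of at least 20 called 937 higher and 4050 lower. Over all 51749 shared regions the counts were 4240 and 5995. Log2 fold changes ran from 0.52 to 1.18 (median 0.84) in the higher regions and from -1.21 to -0.38 (median -0.59) in the lower ones. The fit chose these regions, and the control values enter the fold change, so levels and sizes are given as a description. Within the narrow-peak lists, which hold dKO 1 and dKO 2, they ran from 0.49 to 1.57 in the higher regions and from -1.46 to -0.46 in the lower ones. Within the wide-peak lists, which hold dKO 3, they ran from 0.36 to 0.95 and from -0.80 to -0.17. Both classes gave the same sign in all 16 called regions. The groups' values before centring did not overlap in 15 of the 16, so this sign largely repeats that separation and is no separate support.

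**Figure D1:**
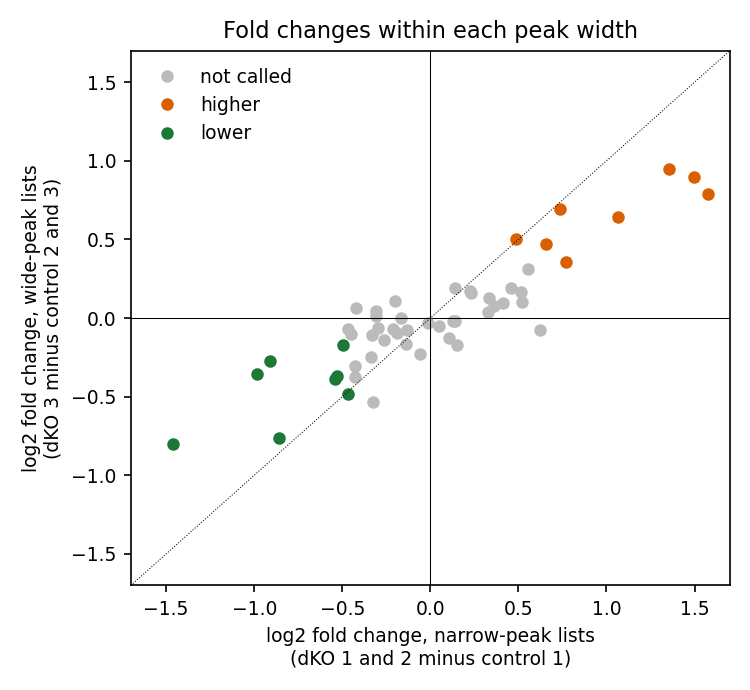
Each point is 1 of the 53 shared regions of the transporter genes; the x axis is its log2 fold change in the narrow-peak lists (dKO 1 and 2 minus control 1) and the y axis that in the wide-peak lists (dKO 3 minus control 2 and 3), with called regions coloured. The higher regions reach 1.57 on the x axis and 0.95 on the y axis, and the lower ones -1.46 and -0.80 (the dotted line marks equal change).

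None of the shared regions that were called lay within 1 kb of the end of a gene span. Up to 1 kb from either end, 0 of 5 shared transporter regions were called, and beyond it 16 of 48 were (33.3%). Starts and span ends are not the same places: the regions over the internal Abcg2 start and over the start shared by Abcg5 and Abcg8 count among the 48 and were not called. The control-only region at the Abcc2 start, centred 112 bp from the end of that gene, is not among the shared ones. Over all shared regions with a gene, 13.3% were called within 1 kb and 21.1% beyond it. The annotation used has no exons, so positions inside a gene are given by distance alone.

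Averaged per gene over its shared regions, accessibility was higher in the dKO at Abcb11 and Abcg5 and lower at Abcg2 and Abcc6. These are 2 higher and 2 lower of 10 genes, against 5.52% higher and 7.96% lower among all 14717 genes with a shared region (limma on gene means, Benjamini-Hochberg adjustment over all of them). The change was 0.67 on the log2 scale for Abcb11 (SE 0.09, adjusted p = 0.00512, 4 regions), 0.68 for Abcg5 (SE 0.15, adjusted p = 0.0188, 1 region), -0.37 for Abcg2 (SE 0.08, adjusted p = 0.0187, 5 regions) and -0.34 for Abcc6 (SE 0.09, adjusted p = 0.0335, 4 regions). The region over the Abcg5 start has its midpoint inside the Abcg8 span and was counted with Abcg8. It was not called, with a log2 fold change of -0.30, so the Abcg5 mean rests on a region inside the gene and leaves out its start. Abcb4 had a gene mean change of 0.39 (adjusted p = 0.0664) and Abcc3 one of 0.19 (adjusted p = 0.265). The other gene means lay between -0.15 for Abcb1a (adjusted p = 0.239) and 0.07 for Abcc2 (adjusted p = 0.790), with Atp8b1 at -0.10 and Abcg8 at -0.02. The gene call of Abcb11 passed with any 1 library left out, but not on regions with a mean of at least 20 (-0.072, limma adjusted p = 0.660) or on the peaks above each list's median score (0.05, limma adjusted p = 0.771). That of Abcg5 was lost without control 3, dKO 1 or dKO 2 (limma adjusted p up to 0.0890), that of Abcg2 without control 2, dKO 1 or dKO 2 (up to 0.101), and that of Abcc6 without any single library but dKO 3 (up to 0.136). Without centring Abcg2 (limma adjusted p = 0.0800) and Abcc6 (limma adjusted p = 0.136) did not pass. The Abcb4 mean passed without control 2 (limma adjusted p = 0.0456) or dKO 3 (limma adjusted p = 0.0328), and under quantile normalization (0.50, limma adjusted p = 0.0381). It also passed under cyclic loess normalization (0.49, limma adjusted p = 0.0395) and with the replicate block. On regions with a mean of at least 20 (0.39, limma adjusted p = 0.0322) and on the peaks above each list's median score (0.51, limma adjusted p = 0.0186) it passed too, 7 of 18 settings in all.

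**Figure D2:**
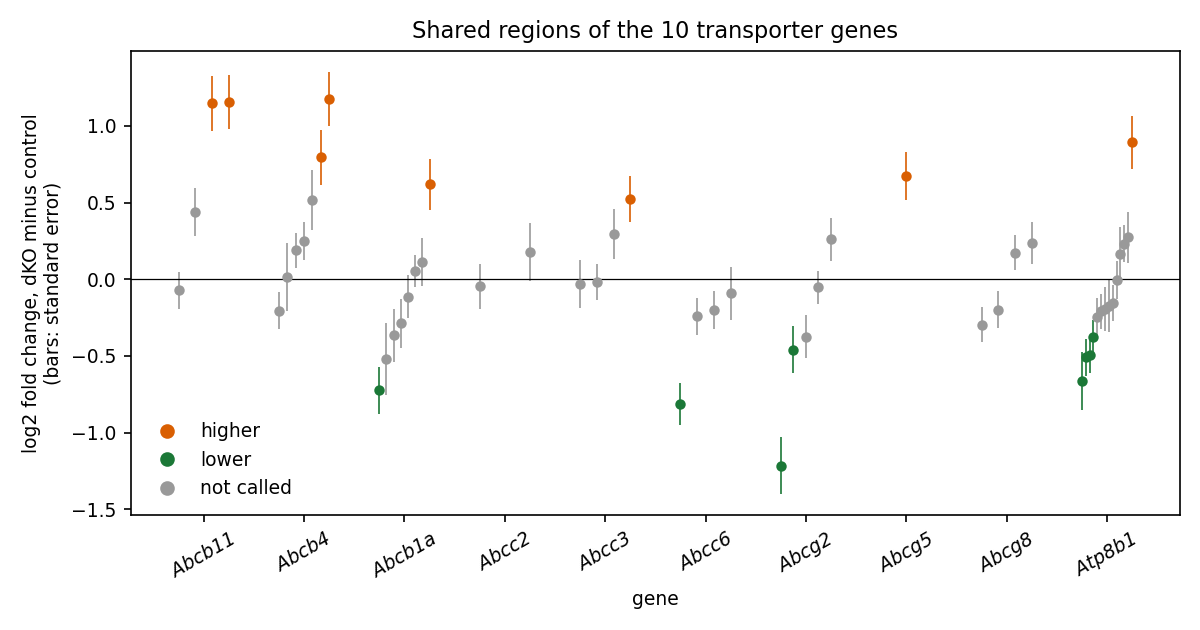
Log2 fold change (dKO minus control, y axis) of every shared region of each transporter gene (x axis, regions ordered by value within a gene), coloured by its call, with bars of 1 standard error. Abcb11, Abcb4, Abcg5 and Abcc3 hold higher regions and no lower one, Abcg2 and Abcc6 hold lower regions and no higher one, and Abcb1a and Atp8b1 hold both.

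Ranked by the mean of its strongest shared region over the 6 libraries, Atp8b1 came first with a normalized tag count of 86.9 ± 13.9 (SD, n = 6), followed by Abcb4 with 69.7 ± 9.84 and Abcc6 with 69.6 ± 12.5. Next came Abcg8 with 48.0 ± 8.59, Abcg2 with 46.9 ± 4.75 and Abcb1a with 44.1 ± 3.05. The lowest were Abcc3 with 37.6 ± 4.36, Abcb11 with 33.5 ± 3.34, Abcg5 with 31.0 ± 8.91 and Abcc2 with 24.9 ± 4.31. The region over the start that Abcg5 shares with Abcg8 was counted with Abcg8 only. The ranges of every 2 neighbours in this order overlapped, so their order is not fixed by these libraries.

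At Abcb11, the bile salt export pump, 2 of 4 shared regions rose, both deep inside the gene, while the region beside its start was not called. Abcb11 lies on the minus strand of chromosome 2 (69238282 to 69342616). At chr2:69289059-69289407, 53.4 kb after the start, normalized tag counts were 6.60, 6.41 and 9.64 in controls 1 to 3 and 19.7, 14.2 and 17.3 in dKO 1 to 3. Every dKO library was above every control, with means of 7.55 ± 1.81 and 17.1 ± 2.76 (SD, n = 3 each) and a log2 fold change of 1.15 ± 0.18 (SE, with an adjusted p of 0.00182 from limma). At chr2:69294583-69294783, 47.9 kb after the start, the controls held 4.47, 6.46 and 6.39 and the dKO libraries 15.4, 11.1 and 13.8. The groups did not overlap here either, and the log2 fold change was 1.16 (SE 0.17, limma adjusted p = 0.00159).

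Between these sites and the start, a region 31.1 kb after the start (chr2:69311439-69311626) held 6.92, 7.90 and 7.40 in the controls and 9.38, 9.83 and 10.5 in the dKO. The groups did not overlap, but the log2 fold change of 0.44 did not pass the test (limma adjusted p = 0.0649). A weak region at chr2:69313124-69313385, which did not stay a single region when 50 bp of overlap was required, was called in the dKO lists only, at 7.40, 6.69 and 8.38, close to the median of 6.90 of all such regions. The region centred 396.5 bp before the start, the strongest shared region of the gene, held 39.6, 33.6 and 32.2 in the controls and 32.6, 29.5 and 33.5 in the dKO. These values overlapped, with a log2 fold change of -0.07 ± 0.12 (SE, with an adjusted p of 0.708 from limma). The printed Abcb11 window itself held only a region called in the 3 narrow-peak lists, at 26.3 in control 1 and 20.1 and 17.7 in dKO 1 and dKO 2.

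Abcb4, the phosphatidylcholine floppase, showed the same arrangement: 2 of 7 shared regions rose inside the gene, and its start and strongest region were not called in the same fit. Abcb4 lies on chromosome 5 (8893614 to 8959226). At chr5:8937975-8938154, 44.3 kb after the start, normalized tag counts were 14.1, 23.8 and 15.6 in the controls and 44.4, 36.1 and 36.5 in the dKO. All 3 dKO libraries exceeded all 3 controls, with means of 17.8 ± 5.22 and 39.0 ± 4.68 (SD, n = 3 each). The log2 fold change of 1.18 ± 0.18 (SE, with an adjusted p of 0.00160 from limma) was close to those at Abcb11. At chr5:8923081-8923309 the controls held 11.7, 12.4 and 8.02 and the dKO 21.0, 15.9 and 18.0. The groups did not overlap, and the log2 fold change was 0.80 (SE 0.18, limma adjusted p = 0.00938), which did not pass without dKO 1 (limma adjusted p = 0.0570) or dKO 2 (limma adjusted p = 0.0550).

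The Abcb4 region over the start (chr5:8893665-8893989) held 38.6, 45.0 and 36.6 in the controls and 45.1, 37.9 and 48.7 in the dKO. The groups overlapped, with a log2 fold change of 0.19 (limma adjusted p = 0.259). The strongest region, 34.9 kb after the start, held 53.3, 76.1 and 66.4 in the controls and 73.3, 67.2 and 81.7 in the dKO, again overlapping (log2 fold change 0.25, limma adjusted p = 0.171). Both depend on the setting: under quantile normalization they rose by 0.37 and 0.43 (limma adjusted p = 0.0331 and 0.0345), and cyclic loess gave 0.35 and 0.44 (limma adjusted p = 0.0390 and 0.0324). The strongest region also passed on the peaks above each list's median score (0.37, limma adjusted p = 0.0400). The other 3 shared regions ranged from -0.20 to 0.52 in log2 fold change, and none passed the test. The highest, at chr5:8947530-8947704, did pass without dKO 3 (0.75, limma adjusted p = 0.0085), under quantile (0.67, limma adjusted p = 0.0441) and cyclic loess normalization (0.66, limma adjusted p = 0.0478), on the peaks above each list's median score (0.64, limma adjusted p = 0.0332) and with the replicate block (limma adjusted p = 0.0051).

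**Figure D3:**
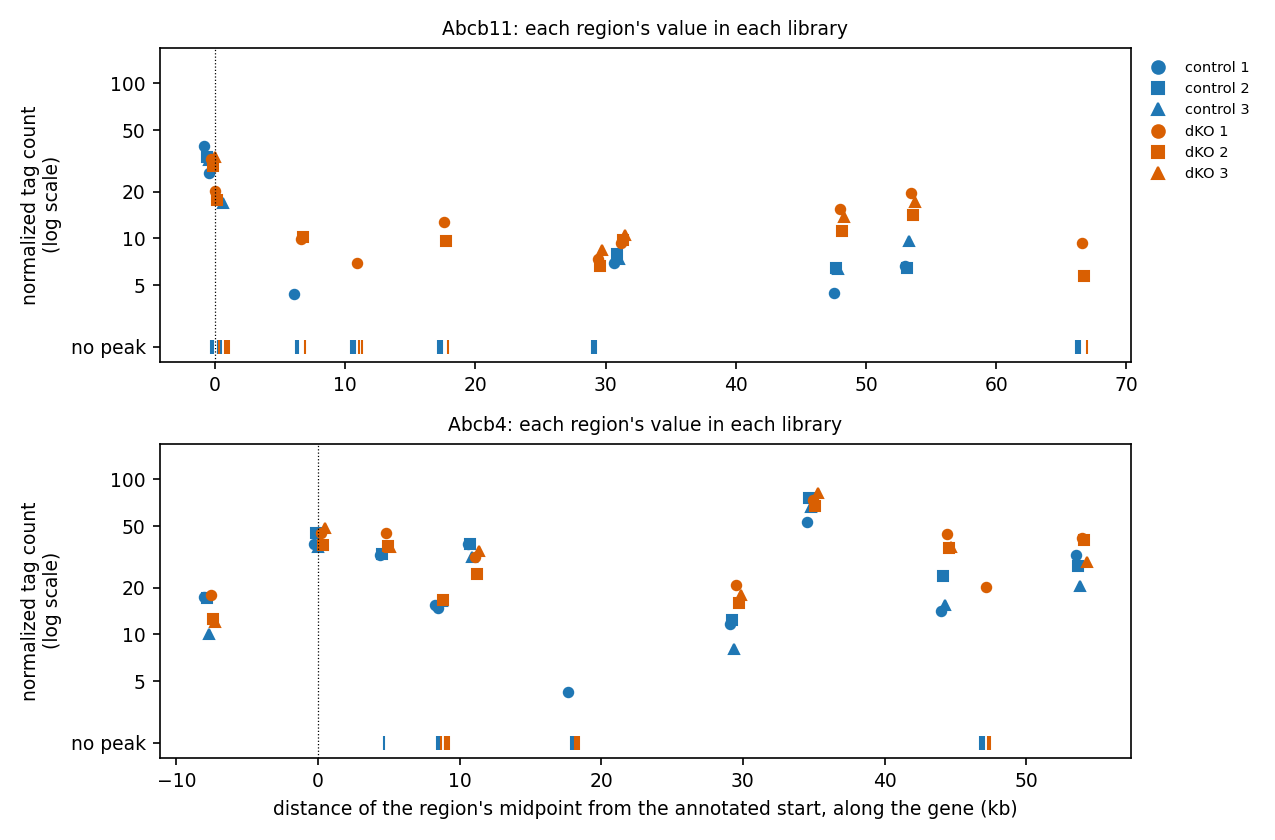
Normalized tag count (y axis, log scale) of every region in each library against the distance of its midpoint from the annotated start in kb, for Abcb11 and Abcb4; points of 1 region are spread sideways, and marks at the bottom are libraries with no peak. The regions 47.9 and 53.4 kb into Abcb11 and 44.3 kb into Abcb4 separate the groups, and those at the starts do not.

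Atp8b1, the phosphatidylserine flippase that keeps the canalicular membrane stable, had the most regions of the 10 genes: 29, of which 14 were shared, 4 lower and 1 higher. The 4 lower regions lay inside the gene (chromosome 18, 64528979 to 64661272). The strongest of them, at 64632995 to 64633172, held 61.4, 60.8 and 61.3 in the controls and 41.2, 37.6 and 58.0 in the dKO. The groups did not overlap, but dKO 3 lay near the controls, and the log2 fold change was -0.38 (SE 0.11, limma adjusted p = 0.0318). That call was lost under quantile normalization (-0.20, limma adjusted p = 0.110), without centring (limma adjusted p = 0.103), with the peak width class as a term (limma adjusted p = 0.0504) and without any single library but dKO 3 (limma adjusted p 0.0665 to 0.164). The other 3 lower regions had log2 fold changes of -0.66, -0.49 and -0.51 (limma adjusted p = 0.0250, 0.0108 and 0.0119), each with no overlap, and were not called without dKO 2 (limma adjusted p = 0.106, 0.0887 and 0.0855). The first was also lost without control 1, control 3 or dKO 1 (limma adjusted p up to 0.124). In all 4, dKO 3 was the dKO library nearest the controls, as it was in all 8 lower transporter regions and in 81.2% of all lower regions after centring. After centring dKO 3 was also nearest in 7 of the 8 higher transporter regions and in 78.8% of all higher regions.

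The region that rose at Atp8b1 lay outside the gene, 21.2 kb from its end that holds the strongest region, at 64682318 to 64682543. It held 4.74, 5.12 and 5.21 in the controls and 12.7, 7.74 and 9.30 in the dKO. Every dKO library was higher, and the log2 fold change was 0.89 (SE 0.17, limma adjusted p = 0.00437). The strongest region of the gene, 217.5 bp inside that end, held 86.8, 93.0 and 98.6 in the controls and 69.9, 70.7 and 102.4 in the dKO, with dKO 3 above all 3 controls, and was not called (log2 fold change -0.15, limma adjusted p = 0.378). A control-only region 28.1 kb beyond the same end was weak, at 3.99, 4.02 and 4.43.

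Abcb1a encodes a P-glycoprotein that exports drugs, and it held 1 lower and 1 higher region among 8 shared ones. Abcb1a lies on chromosome 5 (8567091 to 8748575), at lower coordinates than Abcb1b and Abcb4. At chr5:8716153-8716381, 32.3 kb from the distal end of the gene, normalized tag counts were 40, 37.6 and 35.4 in the controls and 16.7, 19.2 and 30.4 in the dKO. The groups did not overlap, with dKO 3 nearest the controls, and the log2 fold change was -0.73 (SE 0.16, limma adjusted p = 0.00719). A weaker region at chr5:8648363-8648576 held 4.90, 5.79 and 4.54 in the controls and 9.62, 6.95 and 7.41 in the dKO (log2 fold change 0.62, SE 0.17, limma adjusted p = 0.0199), a call lost under quantile normalization and without any 1 of control 1, control 3, dKO 1 and dKO 2 (limma adjusted p 0.0514 to 0.0994). The strongest region of the gene, 92.9 kb after the annotated start, had a log2 fold change of 0.05, and no region overlapped the start window, the nearest being called in dKO 1 alone at 6.94. Abcb1b, a close paralog that lies between Abcb1a and Abcb4 and is not among the 10 genes, also held 1 higher region (log2 fold change 0.62, limma adjusted p = 0.0181) and 1 lower one (-0.50, limma adjusted p = 0.0142).

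Abcg2, a half-transporter that exports drugs and urate, fell at 2 of its 5 shared regions, and 2 more of its 21 regions were called in the control lists only. Abcg2 lies on chromosome 6 (58584491 to 58692451) and has 3 annotated starts. At chr6:58610942-58611217 normalized tag counts were 20.8, 22.3 and 17.7 in the controls and 6.99, 5.54 and 11.8 in the dKO. Every control exceeded every dKO library, with means of 20.3 ± 2.35 and 8.11 ± 3.28 (SD, n = 3 each). The log2 fold change of -1.21 ± 0.19 (SE, with an adjusted p of 0.00174 from limma) was the lowest of the 53 shared regions. At chr6:58629356-58629564 the controls held 14.5, 14.8 and 12.8 and the dKO 9.09, 8.36 and 11.1, without overlap (log2 fold change -0.46, SE 0.15, limma adjusted p = 0.0477). This call was lost with any 1 library left out (limma adjusted p 0.0510 to 0.148). A region outside the gene, chr6:58554120-58554307, held 19.9, 18.6 and 19.8 in the controls and 15.3, 13.2 and 13.9 in the dKO. Every control exceeded every dKO library there too, and the log2 fold change of -0.37 did not pass (limma adjusted p = 0.0792), but with the peak width class as a term it was -0.43 and passed (limma adjusted p = 0.0382).

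The region over the Abcg2 start printed above held 46.0, 51.4 and 48.6 in the controls and 42.4, 40.6 and 52.3 in the dKO. These overlapped, with a log2 fold change of -0.05 (limma adjusted p = 0.756). The 2 control-only regions held 15.8, 7.23 and 8.07 (chr6:58677894-58678081) and 8.94, 10.9 and 9.36 (chr6:58740656-58740848). A further region, named after its values were seen, lay 41.6 kb beyond the gene at chr6:58733931-58734151. It held 31.5, 32.2 and 28.2 in the controls, had no peak in dKO 1, and held 3.61 and 8.20 in dKO 2 and dKO 3. It was not among the shared regions. In a fit of the 76393 regions called in at least 3 libraries, which drops the missing library, its log2 fold change was -2.21 (SE 0.20). The controls alone brought it past that filter, and the region was chosen after its values were seen, so only the size is given.

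Abcc2, the exporter of bilirubin glucuronides, differed between the groups in which peaks were called and not in its shared regions. Neither of its 2 shared regions was called, with log2 fold changes of 0.18 (limma adjusted p = 0.542) and -0.05 (limma adjusted p = 0.856). At its start, chr19:43782088-43782304, the controls held 17.6, 15.5 and 16.5 and no dKO library had a peak. This region covers 217 of the 300 bases of the printed Abcc2 window. Its fold over the local surroundings was 7.48, 4.59 and 4.72 in controls 1 to 3, and the lowest fold in the lists was 4. At chr19:43797336-43797551, 15.1 kb into the gene, the controls held 33.7, 38.2 and 39.5, again with no dKO peak. Folds over the surroundings were 7.29, 4.25 and 5.73 there. Over the 1468 regions called in all controls only, the median was 5.61, and these 2 ranked 196th and 37th by mean.

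At chr19:43793075-43793247, 10.9 kb after the Abcc2 start, the dKO libraries held 131.8, 80.6 and 80.4 and no control had a peak. The mean of 97.6 ± 29.6 (SD, n = 3) ranked 3rd among the 1723 regions called in all dKO libraries only, whose median was 6.90. The peak's fold over its local surroundings was 5.01, 6.26 and 4.85, not far above the lowest fold of 4 in the lists. A neighbouring region at chr19:43792624-43792826 was called in control 1 at 30.8 and control 3 at 35.7 and in no dKO library, with local folds of 5.38 and 4.26. Where the surroundings are open too, a site may fall short of the local fold, so a missing peak does not show closed DNA, and no fold change is given. A weak dKO-only region 6.60 kb before the start held 8.92, 6.22 and 8.75, and it too was not a single region when 50 bp of overlap was required.

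**Figure D4:**
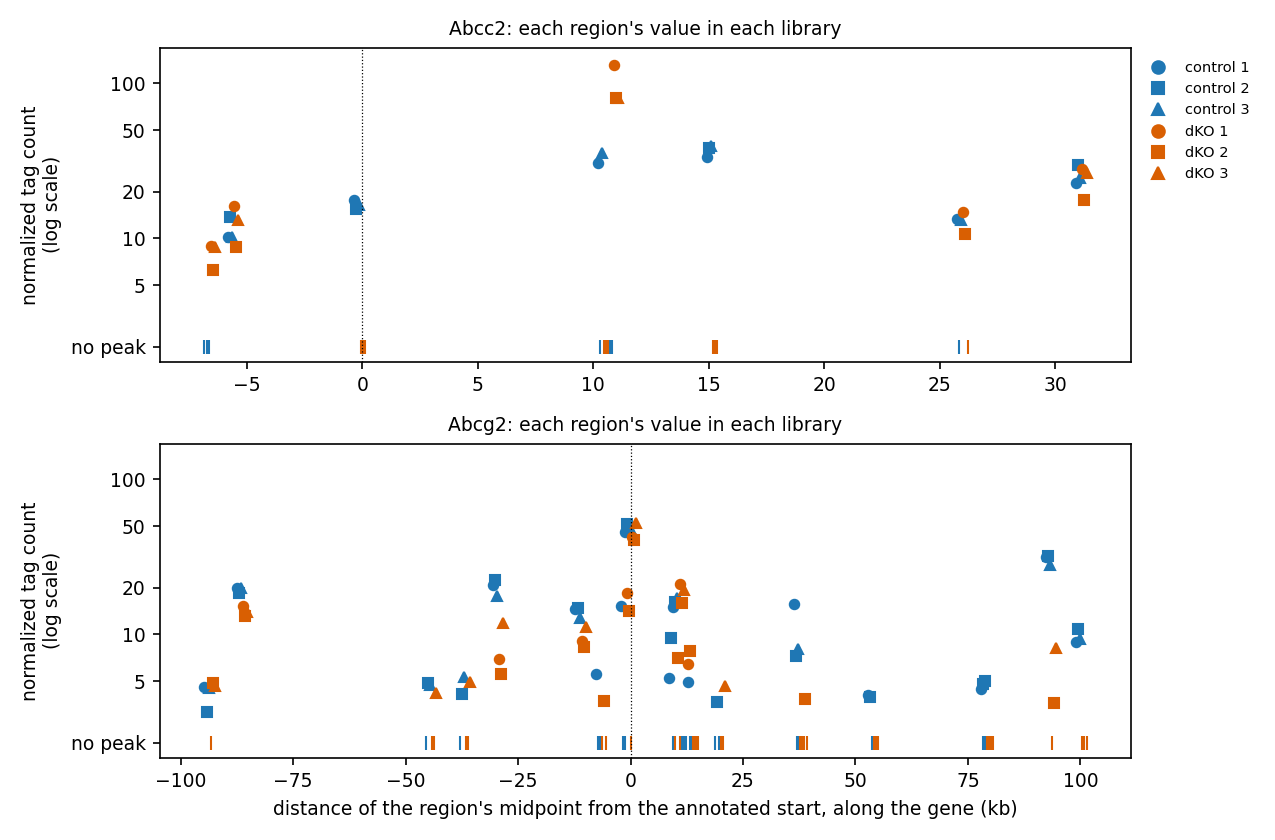
Normalized tag count (y axis, log scale) of every region in each library against the distance of its midpoint from the annotated start in kb, for Abcc2 and Abcg2 (the start printed above); points of 1 region are spread sideways, and marks at the bottom are libraries with no peak. At Abcc2 the dKO points reach 131.8 at 10.9 kb, where no control has a peak, and the control points at the start and at 15.1 kb have no dKO counterpart.

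Abcc3, which returns conjugates to the blood, held 1 higher region among 4 shared ones. At chr11:94370667-94370876, inside the gene (94343295 to 94393017), the controls held 22.5, 25.8 and 17.5 and the dKO 34.4, 24.5 and 32.7. Here dKO 2 lay within the controls' range, and the log2 fold change was 0.52 (SE 0.15, limma adjusted p = 0.0268). It did not pass without centring (limma adjusted p = 0.101) or without control 3, dKO 1 or dKO 2 (limma adjusted p 0.0789 to 0.137). The strongest region, 74 bp from the end of the gene, had a log2 fold change of -0.02 (limma adjusted p = 0.928).

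Abcc6, the transporter whose loss leads to ectopic mineralisation, fell at 1 of 4 shared regions. At chr7:45992587-45992775, 18.6 kb from the nearer end of the gene (45974110 to 46030491), the controls held 23.4, 24.6 and 21.4 and the dKO 12.2, 10.4 and 14.1. The groups did not overlap, with means of 23.1 ± 1.62 and 12.2 ± 1.85 (SD, n = 3 each) and a log2 fold change of -0.81 ± 0.14 (SE, with an adjusted p of 0.00245 from limma). The fall was of like size in both width classes, -0.86 in the narrow-peak lists and -0.76 in the wide-peak ones. The strongest region, at the opposite end of the gene, held 74.0, 72.5 and 79.1 in the controls and 54.0, 54.4 and 83.5 in the dKO, where dKO 3 exceeded every control, and was not called (log2 fold change -0.20, limma adjusted p = 0.272). Without dKO 3 it was -0.32 and passed (limma adjusted p = 0.0386).

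Abcg5 and Abcg8, the partners in the sterol exporter, share a divergent start on chromosome 17, with Abcg5 spanning 84658174 to 84683011 and Abcg8 84676302 to 84700333. The region over that start (chr17:84682944-84683188) held 52.6, 49.6 and 48.6 in the controls and 37.2, 31.8 and 50.1 in the dKO. The groups overlapped through dKO 3 alone, and the log2 fold change of -0.30 was not called (SE 0.12, limma adjusted p = 0.0849). Without dKO 3 it was -0.39 and passed (limma adjusted p = 0.0195). Inside Abcg5, 10.5 kb after its start, the region at chr17:84672426-84672640 held 26.8, 25.8 and 20 in the controls and 45.7, 33.3 and 34.1 in the dKO. Every dKO library was higher there, with a log2 fold change of 0.68 ± 0.16 (SE, with an adjusted p of 0.0102 from limma), which did not pass without dKO 1 (limma adjusted p = 0.0694) or dKO 2 (limma adjusted p = 0.0627).

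The 4 shared regions assigned to Abcg8 include the one over the divergent start. None of them was called, and their log2 fold changes lay between -0.30 and 0.23. A control-only region 6.47 kb after the Abcg8 start (chr17:84689472-84689709) held 26.5, 30 and 29.4, and ranked 68th of the 1468 such regions. Its fold over the local surroundings was 5.12, 4.17 and 5.04, near the lowest fold of 4 in the lists. Its neighbour at chr17:84690225-84690397 was shared, at 38.7, 41.5 and 34.6 in the controls and 42.0, 36.2 and 46.5 in the dKO, overlapping (log2 fold change 0.17, limma adjusted p = 0.287), but under quantile normalization it was 0.35 and passed (limma adjusted p = 0.0317).

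**Figure D5:**
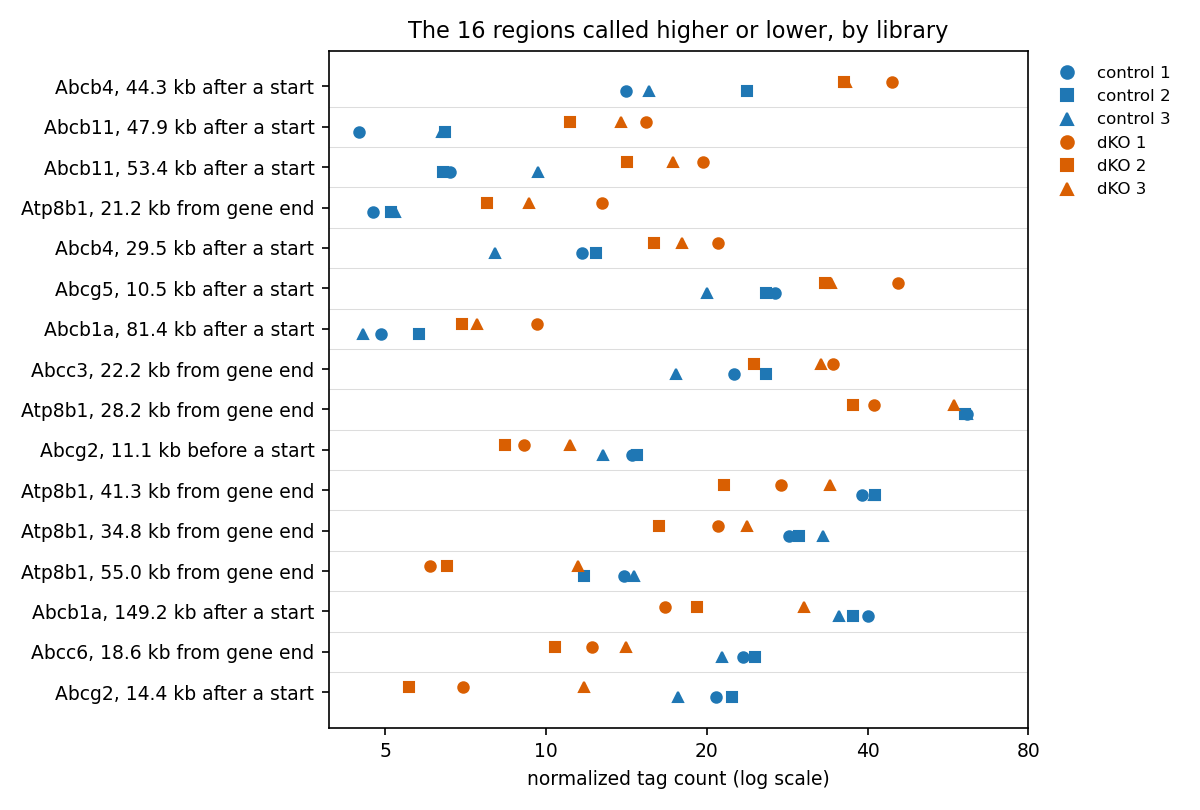
Normalized tag count (log scale) in each of the 6 libraries for the called shared regions of the transporter genes, with controls and dKO libraries marked by colour. In all but the Abcc3 region every dKO value lies on 1 side of every control value, and dKO 3 lies nearest the controls in each lower region. Among the 8 higher regions dKO 3 is nearest in 0 on these uncentred values and in 7 after centring.

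Regions called in some libraries only were more often found in the narrow-peak lists. Of the 54, 32 had a peak in control 1 and 25 each in dKO 1 and dKO 2, the narrow-peak lists. In the wide-peak lists 15 each had one in control 2 and control 3, and 10 in dKO 3. Regions with peaks in narrow-peak lists alone made up 29 of the 54 (53.7%), against 46.3% of such regions over the series. In the fit of regions called in at least 3 libraries, 18 of the 54 could be tested. Over all 76393 regions of that fit, shared ones included, 5304 were called higher and 6669 lower. Among the 18, those called were the Abcg2 region above and 2 with a single control value, for which only sizes are given. The first lay 6.50 kb after the Abcb11 start, at 4.36 in control 1 and 9.91 and 10.2 in dKO 1 and dKO 2 (log2 fold change 1.18). The second, at Abcc6, held 13.1 in control 1 and 5.54 and 5.91 in dKO 1 and dKO 2 (-0.94).

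The other genes of hepatic transport were read as 4 lists, with 29 higher (8.84%) and 52 lower (15.9%) of 328 shared regions in all, against 8.19% and 11.6% of all shared regions. Without dKO 1 these were 12 and 15, without dKO 2 9 and 11, without control 2 30 and 35, and without centring 19 and 36. At 37 other ABC transporter genes, 14 of 137 shared regions were higher (10.2%) and 15 lower (10.9%), with a median log2 fold change of -0.02, close to those of all shared regions. Without dKO 1 these were 6 and 1, without dKO 2 5 and 1, without control 2 16 and 9, without control 3 9 and 12, and without centring 9 and 9. The 3 named by the smallest p were all at Abcc4, a basolateral exporter of conjugates and cyclic nucleotides, and rose. At chr14:118706203-118706489 Abcc4 held 27.8, 35.9 and 28.9 in the controls and 52.6, 46.6 and 57.1 in the dKO, without overlap (log2 fold change 0.80, SE 0.12, limma adjusted p = 0.00154). The others had log2 fold changes of 1.03 and 1.11.

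Basolateral uptake and exchange carriers had 1 higher (3.33%) and 10 lower (33.3%) of 30 shared regions, with a median of -0.29, and Slc51a had no region. The lower count depends on the scaling and the libraries: it was 4 under quantile and 5 under cyclic loess normalization (2 higher in each), 6 without centring or without control 3 (0 higher in each), and 2 without dKO 1 or dKO 2. The organic anion carrier Slc22a7 fell most clearly, 248 bp from its span, from 80.6, 62.2 and 62.5 to 21.9, 20.5 and 39.1 (log2 fold change -1.29, SE 0.16, limma adjusted p = 0.000752). Regions at the uptake carrier Slco1b2 (-0.95, limma adjusted p = 0.000846) and at Slc10a1, the bile salt uptake carrier (-0.59, limma adjusted p = 0.00951), also fell. This list's summed level, before centring, was 864 to 880 in the controls and 561 to 820 in the dKO. The other lists also reached lower sums in the dKO, with 2902 to 2969 against 2377 to 3127 at the other ABC genes. For the 2 lists described next they were 1836 to 1865 against 1405 to 1921 (scaffold) and 2622 to 2798 against 1953 to 2648 (receptors). A link to the fall at the hepatocyte markers was not tested.

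Genes of the canalicular scaffold, membrane traffic and flippase partners had 8 higher (10.1%) and 9 lower (11.4%) of 79 shared regions (median -0.07), with 4 and 6 without dKO 1 and 3 and 4 without dKO 2. A region near the recycling motor gene Myo5b fell (log2 fold change -1.39, limma adjusted p = 0.00198). Receptors and factors known to regulate hepatic transporter genes had 6 higher (7.32%) and 18 lower (22.0%) of 82 (median -0.20), with 2 and 6 without dKO 1, 1 and 4 without dKO 2, and 12 lower under quantile normalization. Among them a region inside Hnf4a fell from 73.5, 76.9 and 75.6 to 36.1, 35.6 and 57.0 (log2 fold change -0.77, limma adjusted p = 0.00222), one near the oxidative stress factor Nfe2l2 fell (-0.59, limma adjusted p = 0.00581), and one in Nr5a2, a regulator of bile acid genes, rose (0.75, limma adjusted p = 0.00432).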

How the data were processed

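Per the file headers, the authors deposited a HOMER peak list for each library, not pooled over replicates. The deposited values are the normalized tag count (a signal scaled to depth), the focus ratio (a fraction), the score of the peak, the ratio of its tags to those around it (local fold) and the p-value of that ratio. Tools named by the submitters' processing notes are HOMER 4.11, SAMtools 1.10, Trim Galore 0.6.4 and Picard, with the build mm10. The sources used here do not give the aligner, read filters, cut-site shift, peak options or depth. The lowest deposited score was 35.5 and the lowest local fold 4 in every list.

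Peaks were merged on an overlap of 1 bp and linked to GRCm38.p6 RefSeq gene spans within 50 kb. Shared regions were compared on log2(normalized tag count + 1), so fold changes of low regions are understated, after median centring, with limma 3.58.1 in R 4.3.3 on all 6 libraries. P-values were adjusted by Benjamini-Hochberg, called under 0.05. The script was tested on simulated data. A gene value is the mean over its shared regions.

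The members and lists were chosen with earlier results of these data known. Described are every called region, each gene's start and strongest region, regions called in 1 group only, and for each list the 3 called regions of smallest p, of which 2 are not reported here. Alternatives covered centring, pseudocount, filters, merging, peak width, the replicate block and each library left out.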

Additional observations from a re-analysis of the deposited data

How the results depend on the processing

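Of the 16 called transporter regions, 7 kept their call in every setting that tested them, but not all 19 settings tested each. Those 7 were both at Abcb11, the stronger ones at Abcb4 and Abcg2, the lower one at Abcb1a, the one at Abcc6 and the higher one at Atp8b1. Only those at Abcb4 and Abcb1a were tested in all 19. Those at Abcb11, Abcg2 and Abcc6 were tested in 17 and that at Atp8b1 in 16. They dropped out where a mean of at least 20 or a score above each list's median was required. None of the 16 changed sign, 29 regions were called in no setting, and 8 uncalled ones were called in some. Over all shared regions, no centring gave 2562 higher and 4655 lower, and left 19 higher list regions and 0 lower transporter genes. With only regions of a mean of at least 20, 937 of all regions, 3 transporter regions and 9 list regions were higher, 4 transporter regions and 1 transporter gene were lower. That gene was Abcb1a (-0.34, limma adjusted p = 0.0372), while Abcg2 (-0.054, limma adjusted p = 0.731) and Abcc6 (-0.22, limma adjusted p = 0.162) were not called, and the Abcb11 gene mean, then resting on its start region, was -0.072 (limma adjusted p = 0.660). With only the peaks above each list's median score, 2488 of all regions were higher and 2232 lower, 5 transporter regions were higher and 3 lower, 28 list regions and 0 transporter genes were lower, and the Abcg2 gene mean was 0.065 (limma adjusted p = 0.669). Requiring 50 bp of overlap left 1 dKO-only region. With 1 library left out, all regions ranged from 1257 to 5174 higher and 1402 to 8123 lower, transporter regions from 4 to 9 and 3 to 9, list regions from 9 to 33 and 11 to 68, transporter genes from 1 to 3 and 0 to 2, and regions called in 1 group only from 6 to 10 (control) and 3 to 8 (dKO). No label says that equal replicate numbers pair the libraries. Correlations of deviations were 0.15, -0.03 and 0.23 for equal numbers and -0.23 to 0.16 for unlike ones, which cannot decide it with 3 libraries per group. With the replicate block 5417 regions were higher and 7384 lower, and 9 and 9 at the transporter genes. The gene means were not run on regions called in at least 3 libraries. The cause of these changes was not tested. Depth is not given in the sources used here, so counting error could not be assessed.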
